A study of Mus musculus with 18 samples.

Results

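The methylomes of skeletal muscle and T cells of 20-month-old mice were compared, 500-bp bin by 500-bp bin, on the 19 autosomes. The members are defined by position: 4783931 of the 5128560 bins in the table lie on chr1 to chr19, and the 4465265 bins with a read in at least 1 of the 2 tissues were used. Methylated DNA had been captured with a methyl-CpG-binding domain (MBD) protein and sequenced (MBD-seq). Muscle was taken from the hindlimbs and T cells from the spleens of female C57BL/6J mice aged 20 months (20 m), and the DNA of 3 mice was pooled for each tissue before capture. Each tissue is therefore 1 column of pooled DNA, no difference between the tissues can be tested, and every value below is a description of these 2 columns. Libraries of mice aged 2 m and 28 m were made in the same way and are given beside the 20-m values. Muscle RNA-seq at 20 m had 3 libraries, given singly or as their mean.

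In mammals a methyl group is added to cytosine mostly where it is followed by guanine (CpG). Most CpGs of a somatic genome are methylated, while clusters of CpGs at gene starts (CpG islands) are usually not. Promoters of genes that a cell type uses are commonly poor in methylation in that cell type, and the promoters of germline genes are methylated in nearly all somatic tissues. The MBD protein binds methylated CpGs and binds a fragment better the more of them it holds, so a bin's value follows both how many CpGs it has and how many of those are methylated.

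The values are normalized counts, that is, reads in a bin divided by a size factor for each library. One read is worth 0.842 in muscle and 1.22 in T cells, and the bins held 131018972 muscle and 197462756 T-cell reads in all. Few bins took many of these reads: the 1000 highest bins held 28.5% of muscle and 62.1% of T-cell reads. Differences are log2(muscle + 1) minus log2(T cells + 1), positive where muscle was higher. When both columns were scaled to the same sum instead of the deposited size factors, every difference between well-covered features shifted by 1.12 toward muscle. The direction of a single negative value within that distance of 0 therefore depends on the scaling, whereas the order of well-covered features does not. List medians are therefore to be read against the median over all tested promoters, which was -0.44 on the deposited scale and 0.65 with both columns at the same sum.

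Some promoter sequences are shown first so that their CpGs can be seen. The stretches below run from 250 bases before to 50 bases after the RefSeq start of each gene (GRCm38), 5′ to 3′ on the gene's strand, with every CpG in capitals. Itgal, Rac2 and Cd5 are leukocyte genes whose promoters were captured in muscle and hardly in T cells, Casq1 and Tpm2 are muscle fibre genes with the opposite difference over the bins within 500 bp of the start, and Dazl is a germline gene captured in both.
Itgal, chr7:127295889-127296188, plus strand: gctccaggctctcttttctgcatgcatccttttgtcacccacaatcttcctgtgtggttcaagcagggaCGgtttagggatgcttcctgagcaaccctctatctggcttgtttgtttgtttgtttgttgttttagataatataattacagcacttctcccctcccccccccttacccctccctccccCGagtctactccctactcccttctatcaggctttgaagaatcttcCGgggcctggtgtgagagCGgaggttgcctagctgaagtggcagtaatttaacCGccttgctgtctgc
Rac2, chr15:78572734-78573033, minus strand: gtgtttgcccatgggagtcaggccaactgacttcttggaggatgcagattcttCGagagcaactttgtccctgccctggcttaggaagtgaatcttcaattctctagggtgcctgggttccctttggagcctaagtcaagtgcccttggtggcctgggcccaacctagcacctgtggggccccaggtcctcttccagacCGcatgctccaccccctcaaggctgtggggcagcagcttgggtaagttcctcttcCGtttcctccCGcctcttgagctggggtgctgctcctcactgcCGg
Cd5, chr19:10738977-10739276, minus strand: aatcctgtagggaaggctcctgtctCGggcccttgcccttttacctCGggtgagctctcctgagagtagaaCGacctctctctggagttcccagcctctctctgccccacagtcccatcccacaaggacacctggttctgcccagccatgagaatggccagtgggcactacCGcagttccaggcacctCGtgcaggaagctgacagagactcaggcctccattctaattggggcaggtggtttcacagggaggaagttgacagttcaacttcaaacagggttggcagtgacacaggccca
Casq1, chr1:172219846-172220145, minus strand: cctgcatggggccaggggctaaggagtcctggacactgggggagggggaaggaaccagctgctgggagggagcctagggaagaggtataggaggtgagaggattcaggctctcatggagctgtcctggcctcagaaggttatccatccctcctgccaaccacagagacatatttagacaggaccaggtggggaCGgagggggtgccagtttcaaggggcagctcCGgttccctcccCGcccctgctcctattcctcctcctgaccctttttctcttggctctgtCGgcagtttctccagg
Tpm2, chr4:43523534-43523833, minus strand: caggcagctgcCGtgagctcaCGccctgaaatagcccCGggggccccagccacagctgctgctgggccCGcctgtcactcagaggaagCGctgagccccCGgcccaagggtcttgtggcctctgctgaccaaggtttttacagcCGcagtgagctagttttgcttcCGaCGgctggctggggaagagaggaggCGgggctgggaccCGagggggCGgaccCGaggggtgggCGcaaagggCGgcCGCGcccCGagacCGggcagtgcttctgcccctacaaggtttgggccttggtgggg
Dazl, chr17:50293571-50293870, minus strand: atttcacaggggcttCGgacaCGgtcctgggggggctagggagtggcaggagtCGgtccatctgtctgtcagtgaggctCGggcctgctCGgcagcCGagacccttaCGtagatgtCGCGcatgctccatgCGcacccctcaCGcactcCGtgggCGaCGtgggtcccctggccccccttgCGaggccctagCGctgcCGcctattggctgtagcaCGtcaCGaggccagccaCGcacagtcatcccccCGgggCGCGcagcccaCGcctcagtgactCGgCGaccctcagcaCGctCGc
The Itgal, Rac2 and Cd5 stretches hold 5 CpGs each and Casq1 holds 4, against a median of 7 over 32851 promoters of the same length in the RefSeq table. The Tpm2 stretch lies in a bin with 0 in muscle and 4.87 in T cells, and the difference at Tpm2 was in the next bin. Tpm2 holds 19 and Dazl 28 CpGs, and 14.2% of those promoters hold as many as Dazl.

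Muscle had more signal where CpGs are sparse and T cells had more where they are dense. In bins with 2 CpGs the median level was 4.21 in muscle and 2.43 in T cells. With 5 to 6 CpGs the medians were 21.9 and 20.7, and with 10 to 14 CpGs they were 53.0 and 82.7. The level peaked at 20 to 29 CpGs, at 74.1 in muscle and 130.2 in T cells, and fell above that. The median difference passed from 0.88 at 2 CpGs through 0.08 at 5 to 6 CpGs to -0.63 at 10 to 14 and -0.86 at 20 to 29 CpGs.

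**Figure D1:**
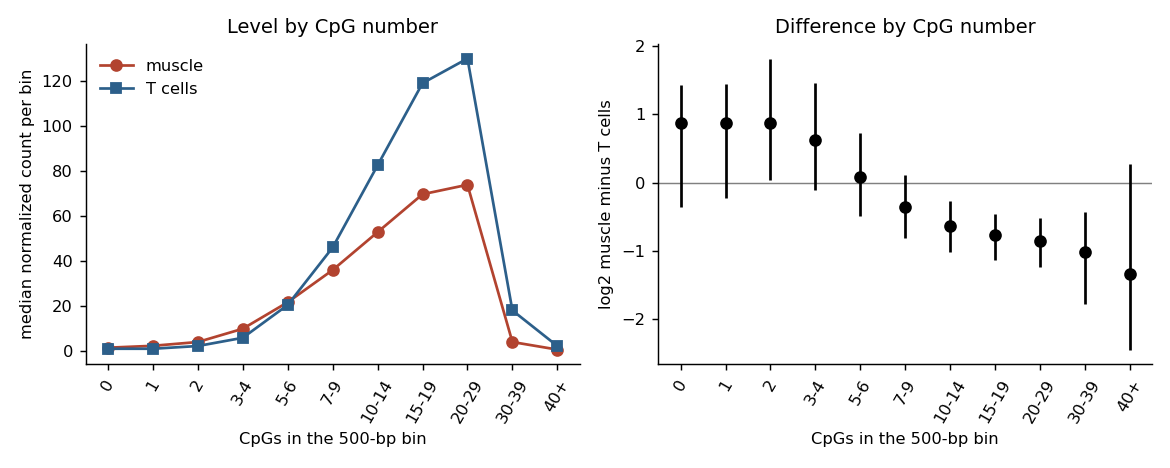
Left, median normalized count per 500-bp bin in muscle (circles) and T cells (squares) by the number of CpGs in the bin. Right, median log2 difference, muscle minus T cells (points), with the range from the 25th to the 75th percentile of bins (lines). The curves cross near 5 to 6 CpGs, where the median difference is 0.08.

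Over all bins the mean log2 level was 3.42 in muscle and 3.02 in T cells, a mean difference of 0.40 (SD over the 19 chromosomes 0.076), and the variance was 2.61 in muscle against 4.49 in T cells. The least-squares slope of muscle on T cells was 0.612 (SD over chromosomes 0.0039) with Pearson's r of 0.802 over bins, which share both libraries. Muscle was more than 2-fold higher in 1315098 bins (29.5%) and T cells in 521892 bins (11.7%), and with both columns at the same sum these were 2654066 (59.4%) and 152328 (3.41%). Many of the bins past 2-fold rest on few reads, and the rule is not even-handed at the bottom of the scale, since 1 T-cell read against none gives a difference of 1.15 and 1 muscle read against none only 0.88. Among the 2112525 bins with a mean of at least 10 normalized counts, 11.9% were 2-fold higher in muscle and 13.3% in T cells. The narrower spread in muscle was also present at 28 m, with a slope of 0.332, and less so at 2 m, with a slope of 0.712.

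CpG islands lay on the T-cell side, as did CpG-dense bins in general. Island-like bins had a GC content of at least 55% and an observed-to-expected CpG ratio of at least 0.65. Their median level was 1.68 in muscle and 4.87 in T cells. T cells were more than 2-fold higher in 57.7% of these 14474 bins and muscle in 12.2%, against 11.7% and 29.5% of all bins. In bins with 30 to 39 CpGs these shares were 51.0% and 9.28%, and with 40 or more 61.8% and 12.9%. The median difference of island-like bins, -1.15, is that of 1 T-cell read against none, and levels this low rest on few reads. Island-like bins at promoters were low in both tissues (0.842 and 2.43). Island-like bins inside genes had medians of 1.68 in muscle and 12.2 in T cells, and intergenic ones were high in both, at 80.8 and 153. Among bins with 5 to 6 CpGs, the only CpG class split into promoter, body and intergenic bins, the median difference was -0.015 in promoter bins, 0.005 in gene bodies and 0.18 between genes. Coding sequence was more heavily captured than introns in both tissues, with medians at 10 to 14 CpGs of 65.7 against 51.4 in muscle and 108 against 82.7 in T cells, and the tissue difference was -0.70 in coding and -0.66 in intronic bins.

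Bins made up of repeats tilted toward muscle at 5 to 6 CpGs. At 5 to 6 CpGs, bins made up of repeat-masked sequence had a median of 23.6 in muscle and 17.0 in T cells, a difference of 0.38, while bins free of repeats had medians of 21.9 and 20.7 and a difference of 0.05. The 1000 highest bins went the other way, with medians of 352 in muscle and 559 in T cells. The highest of them, which starts at position 98667001 of chr2, took 7.92% of muscle and 19.4% of T-cell reads.

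Summed over 100-kb windows, the same order of sequence composition ran along the chromosomes. Of 23909 windows, 1122 (4.69%) were more than 1.5-fold higher in muscle and 1506 (6.30%) more than 1.5-fold higher in T cells. This balance turned with the measure, to 7717 and 163 by the mean of the bins' log2 differences and to 21898 and 6 with both columns at the same sum. The muscle-high windows were poor in CpGs and genes, with a median of 434 CpGs against 776 over all windows, and 68.1% of them held no coding gene. The T-cell-high windows had a median of 1435.5 CpGs, and 3.12% of them held no coding gene, against 35.0% of all windows. By CpG number, the median difference went from 0.49 in the 2391 windows with the fewest CpGs (median sums of 1387 in muscle and 991 in T cells) to -0.55 in the 2391 with the most (5503 and 8063). The correlation of the difference with CpG number over windows was -0.813 at 20 m. It was -0.530 at 2 m, where the differences spread less (SD 0.187 against 0.366), and -0.867 at 28 m, where they spread more (SD 0.651). By the same rule, 57 windows were muscle-high and 162 T-cell-high at 2 m, and 4033 and 5660 at 28 m. Depth and the share of reads in the highest bins also differed between the libraries, and their part in this pattern was not tested.

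**Figure D2:**
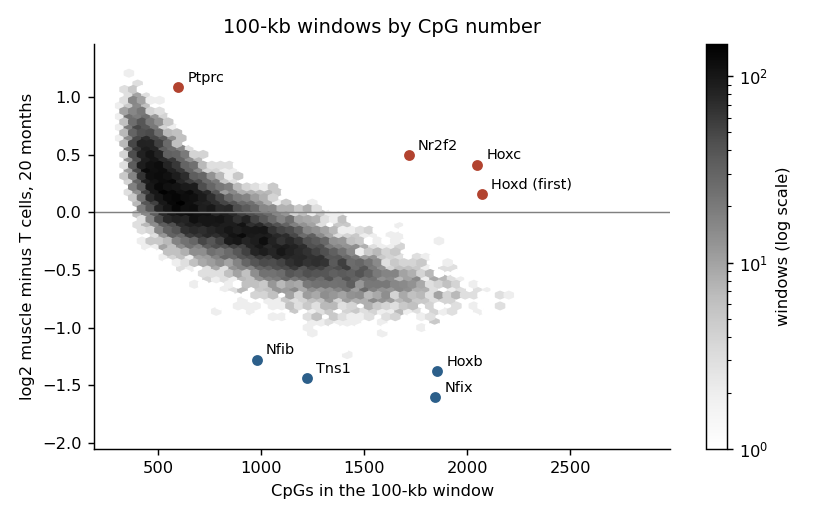
Log2 difference between muscle and T cells at 20 m (vertical axis) of 23903 windows of 100 kb against the number of CpGs in the window (horizontal axis), with darker cells for more windows (cells of 1 window are almost white) and 6 windows outside the axes. Labelled points are windows named in the text, such as Ptprc at 1.09, which lies above the windows with as many CpGs, and Hoxb at -1.38, which lies below them.

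Whole chromosomes followed their CpG content. The median window difference was lowest on chr11, at -0.23 with a median of 953 CpGs per window, and highest on chr3, at 0.03 with 677.5 CpGs. On chr11 13.4% of windows were T-cell-high and on chr3 3.08%. The last 10 Mb of the chromosomes at the telomere end had a median difference of -0.25 and 13.4% T-cell-high windows, while the first 10 Mb had -0.05 and 4.70%. The median window difference fell from 0.14 in windows without a coding gene to -0.49 in windows with 5 or more. Once each window was compared with windows of like CpG number (the median of its 1 of 20 CpG classes was subtracted), the SD of the differences was 0.197, the medians of these gene-number classes lay between -0.05 and 0.02, and 44 windows were 1.5-fold higher in muscle and 122 in T cells. The longest unbroken T-cell-high run was of 15 windows, chr5:113800001-115300000, which hold Coro1c, Acacb, Trpv4, Git2 and Oasl1 among others.

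The windows with the largest differences fell into a few kinds. Toward T cells, 6 of the 10 hold bins from the 1000 highest of the table, with differences of -1.65 to -2.33. In the largest of them, chr12:3100001-3200000, 2 such bins were present and the sum was 1234445 in muscle and 6218897 in T cells. There 10 bins held 99.96% of the T-cell sum, and muscle was higher in 123 bins and T cells in 65. In 5 of these 6 windows muscle was higher in more bins than T cells were. The other 4 were chr13:120000001-120100000 (1235 in muscle and 4594 in T cells), the Nfix window chr8:84700001-84800000 (2903 and 8838), chr6:114500001-114600000 (7020 and 20926, with 76.0% repeat-masked sequence) and the 5S ribosomal RNA gene cluster at chr8:123500001-123600000 (5204 and 15292). In the chr6 window the difference was spread over nearly all of its length, with T cells higher in 196 of its bins and muscle in 4. Over 60 tested promoters of 5S rRNA genes the median difference was -1.78, a family chosen after its values were seen, whose near-identical copies may share reads.

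Toward muscle, 9 of the 10 windows were AT-rich and poor in CpGs (352 to 452 each), among them parts of the neuronal genes Grik2 and Ptprd. The tenth was Ptprc, which encodes CD45, the phosphatase found on all white blood cells. In the Ptprc window chr1:138100001-138200000 the summed level was 2544 in muscle and 1196 in T cells, a difference of 1.09, with muscle 2-fold higher in 112 bins and T cells in 4. The difference there was 1.35 at 2 m and 1.07 at 28 m.

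Windows were also ranked within their CpG class, leaving out those with any of the 1000 highest bins, a ranking set after first values were seen. Of the 12 largest toward muscle 9 were the windows of Nr2f2 (adjusted difference 1.10), of the Hoxc genes (1.02), Ptprc (0.94), Tbx18 (0.77), both windows of the Hoxd genes (0.86 and 0.77), a pair in the T-cell receptor alpha locus (both 0.73) and Bcl11b (0.72), a transcription factor that sets T-cell identity. Nr2f2, Tbx18 and the Hox genes encode transcription factors of embryonic development. In the Nr2f2 window chr7:70300001-70400000 the sums were 3977 in muscle and 2819 in T cells, where windows of that CpG number were mostly higher in T cells. The Bcl11b window chr12:107900001-108000000 had sums of 8226 and 7636, and its adjusted difference was 0.81 at 2 m and -0.13 at 28 m.

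Among the 20 largest toward T cells in the same ranking were genes that differed widely in muscle RNA. The genes given here were picked after their values were seen. Tns1, which links actin to the cell's adhesions, had a window sum of 2806 in muscle and 7631 in T cells (adjusted difference -1.08) and 24909, 23063 and 24326 normalized RNA counts in the 3 muscles. The nuclear factor I genes Nfib and Nfix had adjusted differences of -1.05 and -0.997, and the splicing regulators Mbnl2 and Mbnl1 -0.95 and -0.87. Qk, another splicing regulator, and Stim1, the calcium sensor of the sarcoplasmic reticulum, had -1.03 and -0.81. RNA per kb of exon was 2367 for Tns1, 2483 for Mbnl2, 4006 for Mbnl1, 2570 for Qk and 2015 for Stim1, where the median over 18139 coding genes was 28.4. It was lower, though above that median, for Cep85l, with 143 per kb, Pln, with 91.2, Zbtb20, with 59.97, and Srgap2, with 48.5. Lyl1, Dbndd1 and Fgr, also in windows of this ranking, lay below the median, with 26.0, 25.3 and 1.89. At their starts Tns1, Mbnl2 and Qk had little signal in either tissue (0.561 and 0.811, 1.96 and 1.62, and 0 and 0). The starts of Mbnl2, Mbnl1 and Stim1 lie outside their windows, so start values do not place the window differences. Mbnl1 and Stim1 were higher in muscle at their starts, at 7.02 and 0.406 and at 18.0 and 12.2. The gene-body means were 13.3 in muscle and 29.4 in T cells for Tns1 and 18.5 and 47.0 for Mbnl2.

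On the deposited scale gene bodies in general were higher in T cells, and more so in classes of genes with more muscle RNA, although their median difference of -0.33 became 0.75 with both columns at the same sum. Of 29476 gene bodies tested (a mean of at least 10 in either tissue), 7312 (24.8%) were more than 1.5-fold higher in T cells and 948 (3.22%) in muscle. Coding genes with at most 1 normalized RNA count per kb of exon had median body levels of 18.2 in muscle and 21.8 in T cells, a difference of -0.20. Genes with over 1000 per kb had 20.2 and 31.99, a difference of -0.60, and 51.7% of them were 1.5-fold higher in T cells against 16.8% of the former. Among promoters with fewer than 30 CpGs the same order held, with a median difference of -0.14 for genes with at most 1 count per kb and -1.03 for those with over 1000. Among promoters with 30 or more CpGs the medians were closer, at -1.02 and -1.23. RNA was measured in muscle only, and CpG number and gene size also change with these classes.

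Genes of the muscle fibre were lower in muscle than in T cells on the deposited scale. Promoters were taken as the bins within 500 bp of the RefSeq start, and 28388 promoters with a mean of at least 10 in either tissue were compared, of which 6023 (21.2%) were more than 2-fold higher in T cells and 1684 (5.93%) in muscle, with a median difference of -0.44. Of 31 contractile and metabolic genes 21 had such a promoter. T cells were 2-fold higher in 12 of these and muscle in none, with a median of -1.28. The other 10 lay under the level of 10 in both tissues. Scaled to the same sum the list's median was -0.22 and 4 of the 21 were 2-fold higher in T cells, while of the same 28388 promoters 8661 were then 2-fold higher in muscle and 1710 in T cells.

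Single fibre genes differed in how far the signal reached. At Casq1, the calcium-binding protein calsequestrin, the promoter mean was 18.2 in muscle and 93.7 in T cells, and the first bin past the start had 29.5 and 139.9. Tpm2, a tropomyosin of the thin filament, had a promoter mean of 1.40 in muscle and 34.9 in T cells (difference -3.90), although the CpG-rich bins just before its start were nearly empty in both. Thus at Tpm2 the difference came from the edge of the island, where the bin 332 bp past the start held 4.21 in muscle and 99.8 in T cells. Des, which encodes the intermediate filament desmin, had 11.8 and 61.7, and Myoz1, of the Z-disc, 17.3 and 68.1. Myh4, the myosin of the fastest fibres, had 22.2 and 56.4, and its 20-m muscle RNA averaged 2362663 normalized counts. At 2 m Casq1 differed by -1.54 and Tpm2 by -1.74, and at 28 m by -2.12 and -3.04.

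The bodies of fibre genes shared this direction. All 30 tested bodies of the list were lower in muscle and 25 were more than 1.5-fold lower, against 24.8% of all bodies, with a median of -1.03 against -0.33 over all bodies, and all 30 lay below that general median. Acta1, the actin of skeletal muscle, had 18.4 in muscle and 69.6 in T cells. Tnnc2, the fast calcium sensor troponin C, had 49.9 and 166, and Eno3, the muscle enolase, 11.4 and 43.0. The giant genes Ttn and Neb, which encode the spring and ruler of the sarcomere, had 33.7 against 59.9 and 17.9 against 31.3, over 557 and 403 bins. Trdn, a protein of the calcium release unit, was under the level of 10 in both, at 5.40 and 4.13. With both columns scaled to the same sum the median body difference of the list was 0.06 and that of all bodies 0.75, so on that scale these bodies were low only relative to others.

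**Figure D3:**
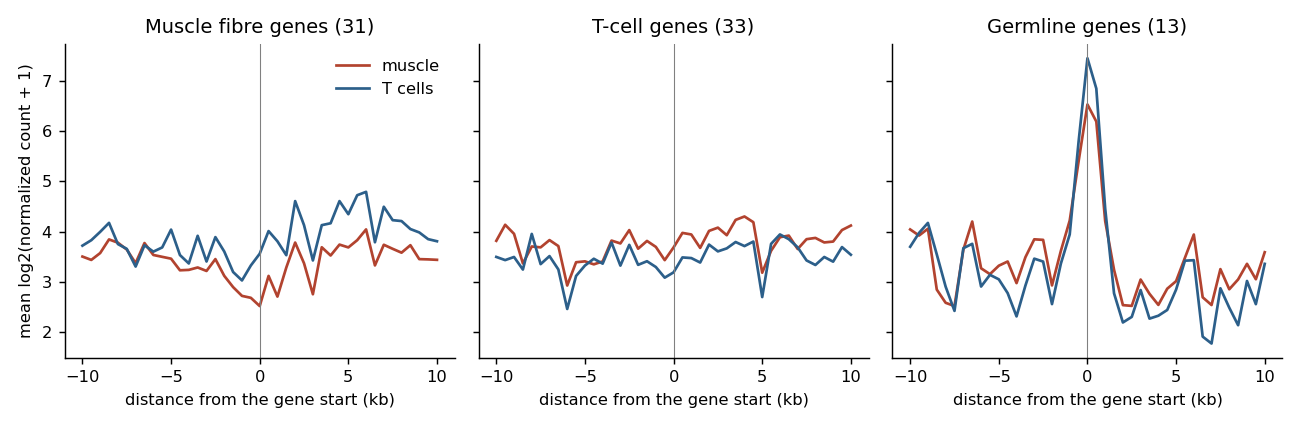
Mean log2(normalized count + 1) per 500-bp bin in muscle and T cells at 20 m by distance from the gene start, over 31 muscle fibre genes, 33 T-cell genes and 13 germline genes. On the deposited scale fibre genes run lower in muscle from the start into the gene, T-cell genes mostly lower in T cells, and germline genes peak at the start in both tissues.

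The regulators of the muscle lineage differed in the same direction on that scale. Of the 7 tested promoters of 9, 5 were 2-fold higher in T cells, against 21.2% of all promoters, with a median of -1.30. Scaled to the same sum the median was -0.21, and none was 2-fold higher in T cells and 1 in muscle. Myog, which drives terminal differentiation, had 41.8 in muscle and 100.2 in T cells, Myf6 25.3 and 68.95, Myf5 21.6 and 54.8, and Myod1 8.14 and 21.9. Pax7, which marks satellite cells and not fibres, differed from them, with 14.6 in muscle and 10.95 in T cells. Its RNA in muscle averaged 45.75 normalized counts, against 3302 for Myf6.

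T-cell genes leaned the other way at their promoters. Of 33 genes 26 had a tested promoter, and 9 of these were more than 2-fold higher in muscle and 2 in T cells, with a median of 0.55 where all promoters had -0.44 and 5.93% were muscle-high. Scaled to the same sum 16 of the 26 were 2-fold higher in muscle, with a median of 1.64. Cd96, a receptor of T and NK cells, had 30.0 in muscle and 4.06 in T cells. Cd5, an inhibitory coreceptor, had 16.6 and 2.03, Ctla4, the checkpoint receptor, 21.1 and 4.06, and Cd2, an adhesion receptor, 39.3 and 10.95. The kinase Lck, which starts receptor signalling, had 55.01 and 20.7, the adaptor Lat 71.85 and 28.4, and Cd3e, of the receptor complex, 57.5 and 26.0. Cd4 and Cd8a, each used by only some of the T cells, had 31.99 against 30.4 and 40.4 against 53.1.

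The 5 genes fixed as T-cell markers were Cd3e, Cd3d, Cd3g, Lck and Cd2, and 4 of their promoters were lower in T cells. Cd3d was the other, at 26.4 in muscle and 30.8 in T cells. Over their bodies 2 were lower in T cells and 3 in muscle. Of the 5 muscle markers Acta1, Ckm, Myh4, Tnnt3 and Mylpf, 4 promoters and all 5 bodies were lower in muscle, though the promoters of Tnnt3 and Mylpf were under the level of 10 in both tissues, and Mylpf had 0.281 and 0. On the same scale 27.4% of all tested promoters were higher in muscle, and 23534 of 29476 bodies were higher in T cells. Acta1 RNA was 1077582 normalized counts on average, and Cd3e RNA in the same muscles 5.65.

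T-cell genes differed among themselves and between ages. Tcf7 and Ets1, transcription factors of T cells, were higher in T cells, at 2.81 against 16.6 and 5.05 against 28.4. Bcl11b, Gata3 and Lef1, also transcription factors of T cells, were under 10 in both tissues. At 2 m the tested promoters of the list had a median difference of 1.69, with 24 of 26 higher in muscle against 38.7% of all promoters, and at 28 m -0.45, with 7 of 26 against 23.5%. The median of all promoters moved the same way, from -0.15 to -0.79. Lck, for example, differed by 3.06 at 2 m, 1.37 at 20 m and -0.23 at 28 m. Of 32 tested bodies of T-cell genes, 3 were 1.5-fold higher in muscle (Cd2, Cd27 and Ptprc) and 2 in T cells (Zap70 and Runx3), against 3.22% and 24.8% of all bodies. Their median was -0.24 beside -0.33 over all bodies, and 0.83 beside 0.75 when scaled to the same sum.

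**Figure D4:**
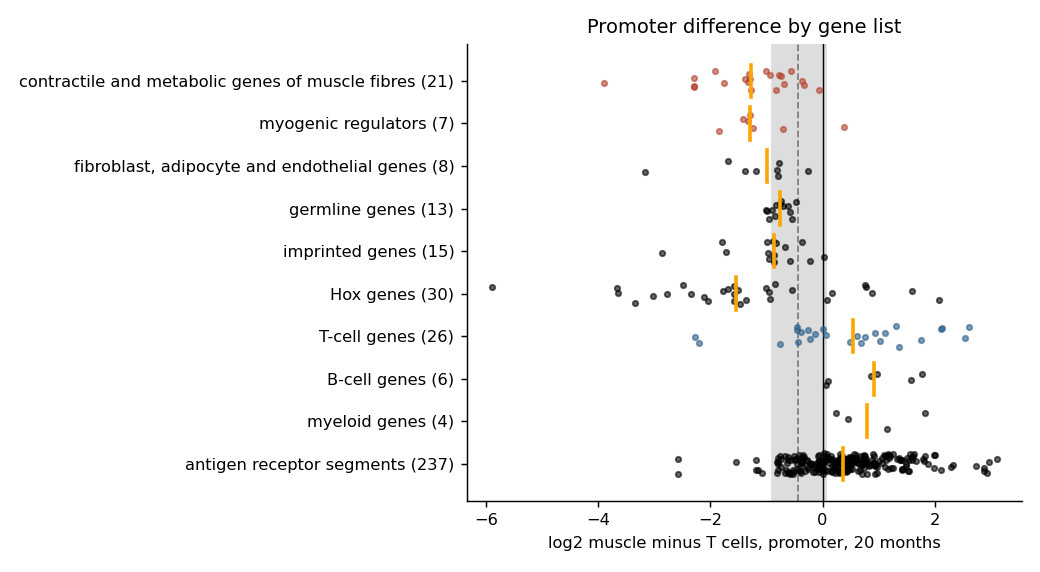
Log2 difference between muscle and T cells at 20 m at each tested promoter (points) of 10 gene lists, with the list's median (orange bar) and the number of promoters in brackets. The grey band runs from the 25th to the 75th percentile of all 28388 promoters and the dashed line their median of -0.44, with 18 of 21 fibre genes to its left and 21 of 26 T-cell genes to its right.

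Promoters of other blood cell genes leaned toward muscle at 20 m. All 6 tested B-cell promoters and all 4 tested myeloid promoters were above 0, with medians of 0.92 and 0.80, where 27.4% of all promoters were above 0. Of each list 2 were more than 2-fold higher in muscle, against 5.93% of all promoters, and all 6 and all 4 when scaled to the same sum. At 28 m 5 of the 6 and 2 of the 4 were above 0, against 23.5% of all promoters. All 5 myeloid bodies were higher in T cells, as were 23534 of all 29476 bodies, with a median of -0.55 beside -0.33 over all bodies, and 0.54 beside 0.75 when scaled to the same sum. Cd79b, of the B-cell receptor, had 12.1 in muscle and 2.84 in T cells, and Spi1, which encodes the myeloid factor PU.1, had 26.9 and 6.90. Genes of fibroblasts, fat and vessels, whose cells are part of muscle tissue, leaned toward T cells: 4 of 8 tested promoters were 2-fold higher there, against 21.2% of all promoters, and none in muscle, with a median of -0.996 that became 0.08 when scaled to the same sum. Col1a2, a collagen of fibroblasts, had 1.68 and 23.1. Hindlimb muscle holds blood cells, fibroblasts and vessels beside fibres, and the share of its DNA from each was not measured.

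The 10 promoters with the largest excess in muscle had 0 to 6 reads in T cells. Itgal, the alpha chain of the integrin LFA-1, had 26.1 in muscle (93 reads) and no read in T cells, which allows up to 1.22 there, so it was at least 21.4-fold higher. At Itgal the 2 bins past the start held 28.6 and 49.7 in muscle, and the bin at 2612 bp was high in both tissues, at 54.7 and 47.5. Rac2, a small GTPase of blood cells, had 22.5 and 0 (at least 18.5-fold). Dock2, which activates Rac in lymphocytes, had 40.7 and 0.811, and Arhgap30 47.7 and 1.22. Arhgef18 had 35.1 and 0, and the myosin light chain gene Myl12b 21.6 and 0. Mir142 and Mir142b, microRNA genes of blood cells that share their bins, had 70.2 and 2.43. The remaining genes were Tspoap1, next to Mir142, at 25.8 and 0 and Agap2 at 20.5 and 0. These 10 stood on the same side at the other ages, with differences of 3.08 to 5.16 at 2 m and 2.25 to 4.12 at 28 m. After subtracting the CpG class, Itgal, Arhgef18, Myl12b, Dock2, Mir142 and Mir142b were again among the 10 largest.

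**Figure D5:**
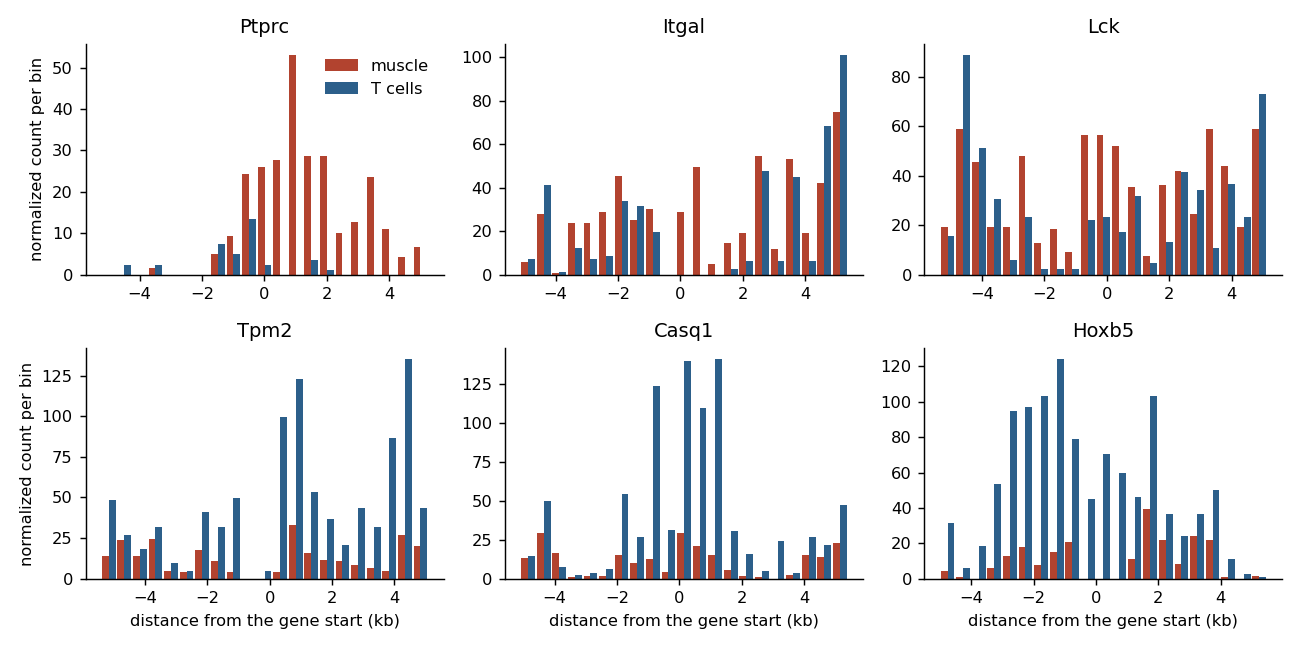
Normalized count of each 500-bp bin within 5 kb of the gene start in muscle and T cells at 20 m, at Ptprc, Itgal, Lck, Tpm2, Casq1 and Hoxb5. Each panel has its own vertical axis. T cells are at or near 0 just past the Ptprc and Itgal starts. Muscle is lower than T cells just past the Casq1, Tpm2 and Hoxb5 starts.

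At Ptprc the gap reached several kb into the gene. The promoter mean was 26.1 in muscle and 5.27 in T cells, and in the bins centred 505 to 5005 bp past the start muscle had 4.21 to 53.0 per bin while T cells had 0 to 3.65.

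The 10 promoters with the largest excess in T cells held 39 to 159 CpGs, against a median of 21 over all tested promoters, and had no muscle read at 20 m. Fzd10, a Wnt receptor, had 0 in muscle and 90.9 in T cells (224 reads), at least 108-fold higher given the 0.842 that no reads allow in muscle. Galnt17, a sugar transferase, had 82.7, Ptprm, an adhesion phosphatase, 71.8, Csmd1 63.3, Hoxb5 58.4, P3h2, a collagen hydroxylase, 54.8, Ccdc9b 54.4 and Igsf9b 50.7 in T cells. Fzd10os shares most of its bins with Fzd10. All 10 were lower in the T cells of young mice, at 0 to 23.7: the T-cell level at 2 m was 3.72 at Fzd10, 7.78 at Galnt17, 3.72 at Ptprm, 1.69 at Hoxb5 and 1.35 at P3h2, and at 28 m it was 89.0, 84.2, 117, 51.1 and 48.5. In muscle they stayed between 0 and 2.73 at 2 m and between 0 and 8.07 at 28 m. At the tRNA gene n-TDgtc15 T cells had 63.3 at 20 m alone, with 0 at 2 m and 0.881 at 28 m.

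The 4 Hox clusters, which pattern the body axis, differed from each other at 20 m. Over the Hoxb cluster, chr11:96194316-96368254, the mean level was 10.8 in muscle and 24.98 in T cells, a ratio of muscle to T cells of 0.432 (95% exact interval from read counts 0.416 to 0.449). Hoxa was at 20.4 and 30.9 (ratio 0.662). Hoxc was at 11.4 and 9.68 (ratio 1.18, 1.11 to 1.25) and Hoxd at 19.02 and 13.4 (ratio 1.42, 1.35 to 1.499). The intervals cover counting error only. Scaled to the same sum Hoxb would be close to even and the others higher in muscle, but the order would stay. The log2 differences of Hoxa, Hoxb, Hoxc and Hoxd were -0.14, -0.58, 1.10 and 0.40 at 2 m and -1.15, -1.01, -0.76 and -0.55 at 28 m, so that at 28 m all 4 were higher in T cells.

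Within the clusters, promoters and bodies differed. Of 39 Hox genes 30 had a tested promoter, and 19 were 2-fold higher in T cells and 2, Hoxd10 and Hoxd12, in muscle, against 21.2% and 5.93% of all promoters, with a median of -1.54. Scaled to the same sum the median was -0.48, and 9 were 2-fold higher in T cells and 7 in muscle. After subtracting the CpG class on the deposited scale the median of the Hox promoters was -0.35. It was -0.04 for Hoxa, -1.56 for Hoxb, -0.47 for Hoxc and 0.48 for Hoxd. All 8 tested Hoxd bodies were higher in muscle and all 9 Hoxb bodies in T cells, where 5942 of all 29476 bodies were higher in muscle and 23534 in T cells. Hoxc12 had 28.6 in muscle and 1.22 in T cells over its body but 15.7 and 46.7 at its promoter. Hoxd12 had 18.3 and 0.913 in its body, and Hoxb13 4.42 and 52.0. Hoxc10, the Hox gene with the most RNA in these muscles at 2872 normalized counts on average, had 3.09 and 13.0 at its promoter.

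Antigen receptor loci were examined because T cells rearrange them. As background, joining of V and J segments cuts out the DNA between them, so T-cell DNA holds fewer copies of parts of these loci, and the copy number was not measured here. The 237 tested segment promoters were of T-cell receptor and immunoglobulin genes together. Of these 52 were 2-fold higher in muscle and 7 in T cells, with a median of 0.37, against 5.93% and 21.2% of all promoters. Scaled to the same sum 174 were 2-fold higher in muscle and 2 in T cells. On the deposited scale muscle was 2-fold higher at 19 of 82 Trav, 7 of 56 Traj and 11 of 38 immunoglobulin Ighv promoters. T cells were 2-fold higher at 1, 0 and 2 of them, and the medians were 0.42, 0.14 and 0.55. Of 19 immunoglobulin Igkv promoters 3 were muscle-high and 2 T-cell-high, with a median of -0.07. Trbv24, a V segment of the beta chain, had 29.2 in muscle and 2.84 in T cells, and Trav13d-4, of the alpha chain, 25.3 and 2.03. Many V segments are near copies of each other, so their reads may have been shared.

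Along the V segments of the alpha locus on chr14 the ratio grew toward the J segments. The mean level over the 43 V segments farthest from J was 12.7 in muscle and 12.6 in T cells, a ratio of 1.01 (0.991 to 1.04). Over the 43 in the middle the ratio was 1.20 (1.16 to 1.23), over the 44 nearest to J 1.30 (1.27 to 1.33), and between the last V and the first J segment, where the delta chain segments lie, 1.31 (1.26 to 1.37). The 500 kb on either side of the locus had 0.733 and 0.683, with more CpGs per bin (5.58 and 7.38 against 3.34 to 4.23). At 2 m the log2 ratios of the 4 stretches from the first V to the first J segment were -0.11, 0.05, 0.80 and 1.41, and at 28 m -0.08, 0.11, 0.07 and 0.12. Over the J segments themselves the 20-m ratio was lower, at 1.10 (1.04 to 1.15), with 5.67 CpGs per bin. The whole beta locus had a ratio of 1.25 and the gamma locus 1.22, with 2.66 and 3.11 CpGs per bin. The immunoglobulin loci, which are rearranged in B cells, had 1.03 for the heavy chain and 0.901 for the kappa chain. Their CpGs per bin were 2.54 and 2.68. The ratios of all these stretches were not adjusted for CpG number.

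Germline and imprinted promoters gave values for DNA that is methylated in both tissues. All 13 germline promoters were tested, with levels of 36.2 to 102 in muscle and 62.1 to 170 in T cells. Their differences lay between -1.002 and -0.48, and their median of -0.76 became 0.34 when scaled to the same sum. Dazl, an RNA-binding protein of germ cells, had 87.6 and 131, and Sycp3, of the meiotic chromosome axis, 79.4 and 154. After subtracting the CpG class their median difference was 0.30. Of 15 tested imprinted promoters, where as a rule only 1 parental allele is methylated, 12 lay between -0.996 and 0.03, and the median of -0.86 became 0.24 when scaled to the same sum. Peg3 had 51.4 and 81.9 and Kcnq1ot1 45.7 and 84.0. Grb10, with 2.25 and 22.7, Airn, with 10.7 and 37.7, and Mcts2, with 55.9 and 195.5, were the other 3.

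Housekeeping promoters were low in both tissues, with medians of 0.561 and 1.62, and 11 of 13 were under the level of 10. Gene bodies were less uniform. B2m, the light chain of the class I antigen-presenting complex, had 23.5 in muscle and 3.04 in T cells over its body, with 1.60 as its difference at 2 m and 0.99 at 28 m. Eef1a1, the translation elongation factor, had 24.0 and 9.13. Rplp0, of the ribosome, had the opposite order, with 22.5 and 47.5. Olfactory receptor genes, a family chosen after values were seen, had median promoter levels of 8.42 in muscle and 4.46 in T cells over 1419 genes. Of 644 tested promoters 97 were 2-fold higher in muscle and 16 in T cells, against 5.93% and 21.2% of all promoters, with a median difference of 0.11. The 1419 promoters had a median of 7 CpGs, against 21 over all tested promoters. After subtracting the CpG class the median difference of the 644 was 0.08.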

How the data were processed

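MBD-seq of muscle and spleen T cells and RNA-seq of muscle, all from female C57BL/6J mice, were used. The deposited signal values were made by the authors, who used Trim Galore for trimming, Bowtie2 for alignment of the MBD-seq reads to mm10 and bedtools for counts per 500-bp bin, and divided the counts by DESeq2 size factors. RNA-seq reads were counted per gene with HTSeq and scaled likewise. Every value (100%) was a whole number of steps of the column's smallest nonzero value, to within 0.001 of a read (in proportion above 1000 reads), so reads could be recovered: 135254786 in muscle and 200456498 in T cells over all bins at 20 m. A share of counts or ratio carries an exact binomial (Clopper-Pearson) interval at 95% and a fold against a count of 0 is set against a floor of 3 reads in place of an interval, both for counting error only. PCR copies were not told apart.

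Muscle was captured in 2 rounds, and the sources used here do not say whether the muscle columns hold 1 round or both. Each tissue was 1 column of DNA pooled from 3 mice, so no difference was tested. Differences were of log2(value + 1), the value being that of a bin, the sum over a 100-kb window with at least 150 bins, or the mean over the bins within 500 bp of a RefSeq gene start (GRCm38.p6) and over the rest of the gene. CpGs and repeat masking came from the same assembly. RNA was matched by symbol for 20593 of 23425 genes. The members and gene lists were chosen with earlier results of these data known. Named were the list members, the 10 windows with the largest difference each way among those with a sum of at least 1000, and the 10 promoters each way, without genes named Gm or Rik and without the 1000 highest bins. Other genes were named after their values were seen. Python 3.11.15, numpy 2.4.6, pandas 2.3.3 and scipy 1.17.1 were used. The alternatives were other pseudocounts, scalings, filters, promoter widths, repeats left out and CpG classes.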

Additional observations from a re-analysis of the deposited data

Results flagged for a closer look

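At 5 promoters the tissue difference at 20 m and at another age was past 2-fold in opposite directions. These were picked by that rule among the named promoters and lists, with 1 library per tissue and age, and the change between ages was not tested. Tcf7, the T-cell factor, differed by -2.21 at 20 m (2.81 in muscle and 16.6 in T cells) but by 1.48 at 2 m. Pax3, of muscle progenitors, had -1.86 at 20 m and 1.52 at 2 m, and Hoxa11 -3.02 and 1.60. Hoxd12 had 1.59 at 20 m, with -1.35 at 2 m and -1.93 at 28 m. The tRNA gene n-TDgtc15 had -6.01 at 20 m and 1.15 at 28 m, where its levels were 3.19 in muscle and 0.881 in T cells.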

How the results depend on the processing

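Of 48 alternative values of the 7 summary results, 17 were within 1.5 times the reported count and 31 were not or, for the slope, differed by more than its SD over chromosomes. With both columns scaled to the same sum, 2654066 bins, 21898 windows and 10823 promoters were then muscle-high and 152328 bins, 6 windows and 1372 promoters T-cell-high, with the level of 10 applied after scaling (29768 promoters). Centred on the median, 844906 bins, 917 windows and 3290 promoters were T-cell-high and 3375 promoters muscle-high. With a pseudocount of 5, 535098 bins and 950 promoters were muscle-high and 248707 bins T-cell-high. At a mean of at least 10, 250711 bins were muscle-high and 281312 T-cell-high. Windows by the mean of their bins' differences were muscle-high in 7717 and T-cell-high in 163 cases. Without bins made up mostly of repeats 2665 windows were muscle-high, against 1122 with them, and 1938 were T-cell-high, against 1506. Within CpG classes 44 and 122 windows and, as an alternative added after seeing the data, 2706 T-cell-high promoters were past the fold. Muscle-high promoters numbered 1113 over 1000 bases on either side, 2837 for the bin with the start alone, 3285 at a level of at least 5 and 513 at 20. The slope was 0.508 and 0.681 with pseudocounts of 0.25 and 5, 0.446 at a mean of at least 10, 0.715 by the first principal axis, 0.712 at 2 m and 0.332 at 28 m. The cause of these moves was not tested. No paired analysis was possible because the result comes from no test. Depth limits single bins most, with a median of 12 muscle and 6 T-cell reads.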

Other observations

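Among families not described above, the 8 Gimap genes, GTPases of lymphocytes clustered on 1 chromosome, had 5 tested promoters, all more than 2-fold higher in muscle, where 5.93% of all promoters were, with a median difference of 2.98. Clustered protocadherins, cell-surface labels of neurons, had 53 tested promoters with medians over all 56 of 35.4 in muscle and 43.2 in T cells, none 2-fold higher in muscle and 4 in T cells, against 5.93% and 21.2% of all promoters. Ribosomal protein genes had almost empty promoters, at 2.18 and 3.24. These families were chosen after values were seen, and the Gimap genes and clustered protocadherins each lie side by side.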
